A study of Mus musculus with 12 samples.

Results

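Hepatocellular carcinoma (HCC) was compared with non-cancerous liver in male mice whose survivin gene, Birc5, was intact. The comparison rested on 6 of the 12 arrays of the series, 3 labelled HCC and 3 labelled non-cancerous liver, chosen by their titles alone. Both groups came from Mxcre- mice of strain 129/SV/B6, which carry no Mx-Cre recombinase and therefore keep survivin. All mice received diethylnitrosamine (DEN), a liver carcinogen, at 50 mg/kg when 2 weeks old, poly(IC), a double-stranded RNA mimic that induces interferon, 8 months later, and were killed 1 week after that. Irradiation and transplantation of bone marrow had taken place 2 months before sampling, so the liver used as the control was exposed to the carcinogen, the irradiation and poly(IC) as well. The other 6 arrays held HCC and liver of Mx-Cre mice with survivin deleted and enter the fit and the last comparison below. Whether each array stands for its own animal, and whether a tumour and a liver with one number share an animal, is not stated in the labels, and the marrow donor is not given in the sources used here. The limma p-values therefore measure the spread between these samples, which may be technical.

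The liver lobule is zoned along the flow of blood. Hepatocytes near the central vein receive Wnt signals from endothelial cells and express beta-catenin targets such as glutamine synthetase, while periportal hepatocytes carry out urea and glucose production. Mature hepatocytes also hold large families of cytochrome P450 and glutathione transferase enzymes that clear foreign compounds and steroids, many of them with levels that differ between male and female mice. DEN itself is made reactive by a pericentral P450 enzyme. The sinusoids contain Kupffer cells, fenestrated endothelium and stellate cells, and DEN tumours of mice often carry activating mutations in the MAPK pathway rather than in beta-catenin.

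Levels below are log2 signals relative to the 75th percentile of the same array, so a difference of 1 is a doubling. Replicate 1 of each group was on slide 1, and replicates 2 and 3 on slide 2, which was scanned in another session. The first principal component held 54.3% of the variance and separated the slides, and the slide was therefore a term of the fit. The 75th percentile lay at 1131 to 1766 signal units on slide 1 and at 3343 to 3906 on slide 2. Liver replicate 1 had 49.0% of its spots well above background, against 69.2% to 83.4% on the other 11 arrays, and it is the only intact liver on slide 1. A second doubt concerns the HCC array of slide 1. In the deposited value table the columns of HCC replicate 1 and of survivin-deleted liver replicate 1 hold each other's scanner values (r = 1.00 across 55681 probes, against 0.970 and 0.964 with their own files). Differences are therefore given as filed in the scanner records and, after them or in the same bracket, with these arrays exchanged. Slide 2 alone, where both records assign every array alike, is added for the lists and the genes whose slides differ. Alb, the hepatocyte albumin gene, read 6.39 to 7.13 in the livers and 6.06 to 7.13 over all arrays of both readings, so every array carried a strong hepatocyte signal.

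No gene passed an adjusted p of 0.05 (limma with slide as a block, Benjamini-Hochberg over 29406 genes, 0% called in either direction). The smallest adjusted p was 0.629 as filed, 0.198 with the arrays exchanged and 0.277 on slide 2 alone. At an unadjusted p under 0.05, 1010 genes were higher in HCC (3.43%) and 699 lower (2.38%) as filed. With the arrays exchanged the counts were 2053 (6.98%) and 1114 (3.79%), and on slide 2 alone 1021 (3.47%) and 1079 (3.67%). The counts moved with single arrays: 366 higher and 456 lower without liver replicate 1, 1735 higher without liver replicate 3 and 419 lower without HCC replicate 3. A simpler measure asked whether the HCC arrays lay beyond the liver arrays within slide 2 and on the same side on slide 1 in both readings. By this measure 3267 genes were separated upward (11.1%) and 2824 downward (9.60%), and within slide 2 alone 6302 were apart upward (21.4%) and 6244 downward (21.2%). These shares are the background for every count of list members below, and since no gene passed the test, all differences are given as values.

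Birc5, whose protein works in the chromosomal passenger complex of dividing cells, was read first because its state defines the genotypes. Its probe of highest signal (mm9 chromosome 11, 117716978 to 117717037) read 2.85, 0.51 and 0.76 in livers 1 to 3 and 0.80, 0.82 and 1.76 in HCC 1 to 3. On slide 2 both HCC arrays were above both livers, and on slide 1 the order was reversed. The difference, HCC minus liver, was -0.25 (SE 0.69, limma unadjusted p = 0.728; exact permutation test of 3 against 3, two-sided, p = 1.0, where 0.1 is the smallest possible). With the exchanged array, which read 2.42, it was 0.29 (limma unadjusted p = 0.529, exact p = 0.8), and on slide 2 alone 0.66. The difference lay between -0.25 and 0.04 over its 3 probes as filed. The array filed as survivin-deleted liver replicate 1 read 2.42 while deleted livers 2 and 3 read -0.10 and -1.07.

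The genes of smallest unadjusted p among those separated on both slides were led by Timp1, a secreted inhibitor of matrix metalloproteinases (mm9 chromosome X, 20451802 to 20451861). It read 0.36, -0.34 and -1.10 in livers 1 to 3 and 2.41, 1.16 and 1.91 in HCC 1 to 3, and the exchanged array read 2.24. Every HCC value in either reading was above every liver value. The means were -0.36 ± 0.73 in liver and 1.83 ± 0.63 in HCC (SD, n = 3), a 4.56-fold difference (2.19, SE 0.29, limma unadjusted p = 2.14e-05, adjusted p = 0.629; exact permutation test, two-sided, p = 0.1). The exchanged reading gave 2.13 and slide 2 gave 2.26. Ier3, an immediate-early gene induced by growth factor and stress signals (chromosome 17, 35959528 to 35959587), read -0.15, -2.78 and -3.30 in livers and 2.22, -1.01 and -0.03 in HCC, with 1.65 on the exchanged array. Within each slide the HCC arrays were higher, although HCC 2 lay below liver 1 of the other slide. The difference of 2.47 was 5.54-fold (SE 0.49, limma unadjusted p = 5.75e-04, adjusted p = 0.767), with 2.28 in the exchanged reading.

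The other 6 genes that the rule names on the higher side were Fcrl5, an Fc receptor-like gene of B cells, the odorant receptor Olfr1260, the vomeronasal receptor Vmn1r214, the lectin receptor Klrb1a of natural killer cells, the protocadherin Pcdhb10 and the transcription factor Scrt2. Their differences ran from 1.06 for Fcrl5 and Vmn1r214 to 2.46 for Pcdhb10, which was fitted without liver replicate 2 because its spots there were flagged. Several of these signals were dim: Vmn1r214 was well above background in 1 of 3 livers, and Olfr1260, Pcdhb10 and Scrt2 in 2 of 3. Klrb1a was measured above background on all 6 arrays and read -2.04 to -2.62 in liver and -1.03, -0.20 and -0.65 in HCC, a difference of 1.68 (limma unadjusted p = 0.00122) and 1.70 exchanged.

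On the lower side the smallest p belonged to Cyp3a11, a major drug- and steroid-oxidising P450 of mouse liver (chromosome 5, 146672058 to 146673925). It read 4.98, 5.43 and 5.61 in livers and 3.52, 4.66 and 4.53 in HCC, with 4.18 on the exchanged array. All HCC values were below all liver values. The difference of -1.10 (SE 0.19) was 2.14-fold (limma unadjusted p = 2.12e-04, adjusted p = 0.767), with -0.88 in the exchanged reading and -0.92 on slide 2. Another Cyp3a11 probe differed by -0.45 as filed (limma unadjusted p = 0.0589). Gsta1, an alpha-class glutathione transferase (chromosome 9, 78090411 to 78090470), read 2.86, 2.46 and 4.77 in livers and 0.90, 0.48 and 0.18 in HCC, with 2.18 on the exchanged array. The HCC and liver values did not overlap in either reading. The difference was -2.84 (SE 0.60, 7.17-fold, limma unadjusted p = 9.29e-04) as filed, -2.42 exchanged and -3.28 on slide 2. Akr1c19, an aldo-keto reductase (chromosome 13, 4247522 to 4247581), was another such enzyme, at 2.18, 0.71 and 1.79 in livers and -0.30, -1.40 and -1.95 in HCC, a difference of -2.78 (6.86-fold) as filed and -2.62 exchanged.

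Hectd2, a ubiquitin ligase gene (chromosome 19, 36695106 to 36695165), read 0.80, 0.41 and 1.39 in livers and -0.29, -2.33 and -2.39 in HCC, a difference of -2.53 (5.78-fold) as filed and -2.68 exchanged. Add3, which encodes an adducin of the membrane skeleton, differed by -1.28 and -0.94. Tas2r143, a taste receptor, was not well above background on any HCC array as filed. It was so in 1 of 3 livers, and no fold is given.

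**Figure D1:**
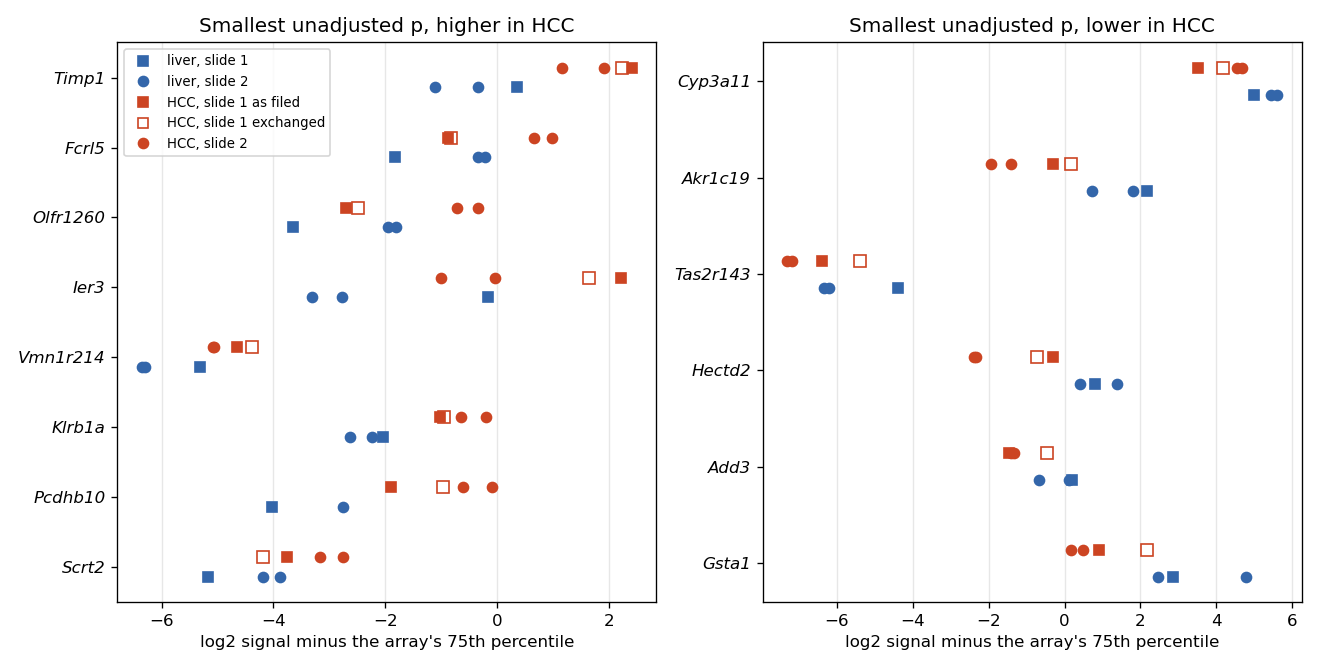
Log2 signal relative to each array's 75th percentile (x axis) for 8 genes on the higher and 6 on the lower side of smallest unadjusted p (y axis). Squares are slide 1, circles slide 2, blue liver, red HCC, and the open square is the array that the value table names HCC replicate 1. Timp1 in HCC lies at 1.16 to 2.41, to the right of all livers, and Cyp3a11 in HCC at 3.52 to 4.66, to the left of all livers.

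Gene lists showed which kinds of gene these differences belonged to. Over all genes the median difference was 0.04 in both readings and 0.00 on slide 2. Plasma proteins made by hepatocytes had a median of -0.04 as filed and -0.18 exchanged (45 genes), acute-phase proteins 0.10 and -0.21 (30 genes) and ribosomal and housekeeping genes 0.00 and -0.05 (24 genes). Detoxifying enzymes, bile acid genes and markers of sinusoidal endothelium and Kupffer cells had medians of -0.61 to -0.37 in both readings, with slide 1 and slide 2 on the same side of 0. Wnt targets, male-biased genes and mitotic genes differed in sign between the slides in at least 1 reading.

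**Figure D2:**
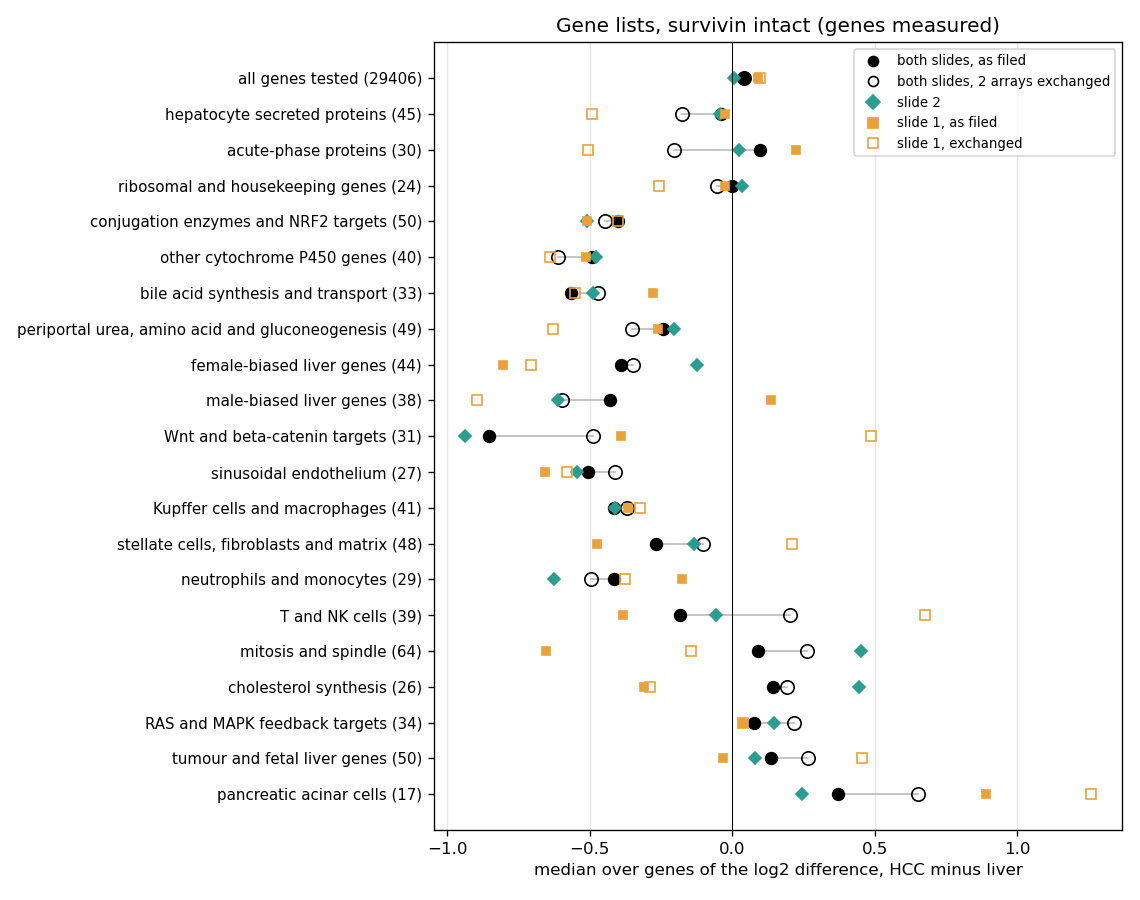
Median over the measured genes of each list (number in brackets) of the log2 difference, HCC minus liver (x axis). Filled circles give both slides as filed, open circles the exchanged reading, diamonds slide 2, and filled and open squares the readings of slide 1. The conjugation list lies at -0.40 and -0.45 in the circle readings, while the slide 1 squares of the Wnt list lie at -0.39 and 0.48.

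Conjugating and antioxidant enzymes were mostly lower in HCC. Of their 50 measured genes, 25 were separated downward and 1 upward (background 9.60% and 11.1%), and 18 had an unadjusted p under 0.05 on the lower side as filed and 15 exchanged. Their median was -0.40 as filed, -0.45 exchanged and -0.51 on slide 2. Gsta2, an alpha-class transferase close in sequence to Gsta1, read 0.31, 2.38 and 4.35 in livers and -0.63, 0.16 and -0.27 in HCC (-2.59 and -2.57). The alpha-class transferases thus varied widely among the livers themselves, over 2.31 for Gsta1 and 4.04 for Gsta2, and HCC lay below each liver of the same slide. The mu-class gene Gstm3 read 6.05, 4.41 and 5.44 in livers and 4.99, 3.20 and 3.08 in HCC, with 4.52 on the exchanged array (-1.54 and -1.70, limma unadjusted p = 0.00142 and 2.65e-04). Gstm1, another mu-class gene, differed by -0.64 and -0.66 and the theta-class Gstt3 by -1.82 and -1.79. The quinone reductase Nqo1, a classical target of the transcription factor NRF2, read 0.77, -0.58 and 1.83 in livers and -0.33, -1.37 and -1.71 in HCC. The exchanged array, at 0.77, was level with its liver, and the difference was -1.81 as filed, -1.44 exchanged and -2.16 on slide 2. Members of these families are similar in sequence, and the files do not show how far a probe also binds a relative, so Gsta1 with Gsta2, and the Cyp2b, Cyp2c, Cyp4a12 and trypsinogen genes below, may share signal.

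Other cytochrome P450 genes gave a median of -0.49 as filed and -0.61 exchanged, with 19 of 40 separated downward and 2 upward. Cyp2c29 read 4.94 to 4.99 in the 3 livers and 4.07, 4.43 and 4.16 in HCC, with 4.28 on the exchanged array, a difference of -0.74 and -0.67. Its livers spanned 0.05 and every HCC array lay below them. Cyp2c50 and Cyp2c54 differed by -1.72 and -2.18 as filed, by -1.96 and -2.24 exchanged and by -2.12 and -2.99 on slide 2. Cyp26b1, which degrades retinoic acid, differed by -1.56 and -1.35. Por, the reductase that supplies electrons to microsomal P450 enzymes, differed by -0.66 and -0.61. Cyp1a1, the dioxin-inducible P450, was well above background in 2 of 3 livers and on none of the HCC arrays, so liver exceeded HCC at least 4.76-fold. Such a bound sets the mean of the brighter group, its undetected arrays included, against the lowest well-detected signal of each dim array.

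Bile acid synthesis and transport had 13 of 33 genes separated downward and 1 upward, with medians of -0.57 and -0.47. Cyp7a1, the rate-limiting enzyme of bile acid synthesis, read 3.03, 2.22 and 1.43 in livers and 2.94, 0.61 and -0.39 in HCC, with 3.12 on the exchanged array. On slide 1 it was level with the liver in either reading, and its difference of -1.17 (-1.11 exchanged) came from slide 2 (-1.72). Cyp27a1, the mitochondrial sterol hydroxylase, was lower on both slides (-0.95 as filed), as was the sinusoidal uptake transporter Slco1b2 (-0.66 and -0.62). Periportal urea, amino acid and gluconeogenesis genes had a smaller median, -0.24 as filed and -0.35 exchanged, with 19 of 49 separated downward and 0 upward, and was -0.15 without liver 1. Among them the tyrosine-degrading enzymes Hpd and Hgd differed by -0.74 and -0.70 and the glycine methyltransferase Gnmt by -0.61 as filed, each with HCC below liver on both slides. Exchanged, these were -0.86, -0.81 and -0.68. Pck1, the gluconeogenic enzyme, differed by -0.25 and -0.31.

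Genes of fatty acid oxidation and PPAR-alpha had a median of -0.22, or -0.10 without liver 3, with 10 of 40 separated downward and 1 upward. Within this list the acyl-CoA thioesterase Acot1 read 3.08, 0.80 and 1.39 in livers and 1.98, -0.91 and -1.54 in HCC, with 2.91 on the exchanged array (-1.91 and -1.60). The fatty acid hydroxylase Cyp4a14 differed by -2.98 and -2.99, most of it on slide 2 (-4.12). The liver hormone Fgf21 ran the other way, at -5.25 to -5.65 in livers, where it was well above background on 1 of 3 arrays, and -4.29, -2.60 and -1.40 in HCC. The exchanged array read -5.39, below the liver of its slide, so that the exchanged Fgf21 difference of 2.27 rested on slide 2. As filed the difference was 2.64, with 0.96 on slide 1 and 3.48 on slide 2.

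Wnt and beta-catenin targets had a median of -0.85 as filed and -0.49 exchanged, and the slides disagreed. On slide 2 the median was -0.94 and 21 of 31 members lay apart downward (background 21.2%), whereas on slide 1 it was -0.39 as filed and 0.48 exchanged. Only 6 of 31 members were separated downward on both slides in both readings, and 9 had an unadjusted p under 0.05 on the lower side as filed and 5 exchanged. Cyp1a2, a pericentral P450, read 4.77, 3.77 and 4.52 in livers and 3.97, -0.94 and 0.70 in HCC, with 4.40 on the exchanged array. Both HCC arrays of slide 2 were far below all livers, and the slide 1 array of either reading was within 0.80 of its liver. The difference was -3.11 over both slides (SE 0.77, limma unadjusted p = 0.00256, adjusted p = 0.767), -2.97 exchanged and -4.27, or 19.3-fold, on slide 2. Oat, ornithine aminotransferase, gave the same order, 3.22, 1.84 and 3.18 in livers and 3.01, -1.66 and -1.34 in HCC, with 3.05 on the exchanged array (-2.74 and -2.73).

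Glutamine synthetase, Glul, read 2.17, 1.70 and 2.58 in livers and 1.36, 0.57 and 1.00 in HCC, so that HCC was lower on each slide as filed (-1.17). The exchanged array read 2.32, above its liver, and the difference was then -0.86. The glutamate transporter Slc1a2 differed by -3.19 as filed, -2.84 exchanged and -4.53 on slide 2. Of its other probes 1 differed by -3.28 and 1 by 0.00 as filed. The ammonium transporter Rhbg differed by -1.86, -1.63 and -2.47 in the same order. The stem cell marker and R-spondin receptor Lgr5 and the transcription factors Tbx3 and Sp5 were lower on slide 2 by -1.91, -2.08 and -1.76. On slide 1 the exchanged array read higher than the liver for these genes, at 1.74 against 0.30 for Lgr5, 2.75 against 1.93 for Tbx3 and 0.40 against -1.65 for Sp5. Cyp2e1, the P450 that activates DEN, read 6.63, 5.07 and 5.56 in livers and 6.44, 3.62 and 4.07 in HCC, with 6.15 on the exchanged array (-1.04 and -1.14). The feedback gene Axin2 was well above background in 2 of 3 livers and on 1 of 3 HCC arrays in either reading, and no difference is given for it.

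The promoters of these genes were searched for ATCAAAG, a core letter pattern bound by the TCF/LEF partners of beta-catenin, on both strands (CTTTGAT on the other). The windows run from 250 bases before to 50 after the gene start in RefSeq on GRCm38.p6. Of 20 list members with such a sequence 4 held the pattern, against 4.29% of 27025 genes. They are shown, with the pattern in capitals, because their genes differed by up to -4.53 on slide 2. The pattern begins at -207 from the start of Slc1a2 (chr2:102706188-102706487, plus strand), -104 of Sp5 (chr2:70474673-70474972, plus strand), -32 of Lect2 (chr13:56548489-56548788, minus strand) and -202 of Tnfrsf19 (chr14:61037938-61038237, minus strand).
Slc1a2: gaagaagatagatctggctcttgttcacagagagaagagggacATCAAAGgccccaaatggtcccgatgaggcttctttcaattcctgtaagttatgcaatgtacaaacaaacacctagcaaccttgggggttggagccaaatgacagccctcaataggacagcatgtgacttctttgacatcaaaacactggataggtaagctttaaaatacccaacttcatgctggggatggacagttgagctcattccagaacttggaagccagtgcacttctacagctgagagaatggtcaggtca
Sp5: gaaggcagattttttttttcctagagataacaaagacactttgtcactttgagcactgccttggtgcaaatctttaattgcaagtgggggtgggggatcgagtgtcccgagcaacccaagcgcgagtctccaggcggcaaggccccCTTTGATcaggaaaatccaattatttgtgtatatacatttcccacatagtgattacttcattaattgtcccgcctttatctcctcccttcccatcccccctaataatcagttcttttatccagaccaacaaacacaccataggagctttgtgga
Lect2: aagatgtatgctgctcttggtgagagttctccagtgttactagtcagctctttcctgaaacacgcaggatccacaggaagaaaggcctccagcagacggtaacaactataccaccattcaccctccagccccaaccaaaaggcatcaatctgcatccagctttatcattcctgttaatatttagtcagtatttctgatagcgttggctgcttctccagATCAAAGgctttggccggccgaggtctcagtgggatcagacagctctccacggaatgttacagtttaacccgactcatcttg
Tnfrsf19: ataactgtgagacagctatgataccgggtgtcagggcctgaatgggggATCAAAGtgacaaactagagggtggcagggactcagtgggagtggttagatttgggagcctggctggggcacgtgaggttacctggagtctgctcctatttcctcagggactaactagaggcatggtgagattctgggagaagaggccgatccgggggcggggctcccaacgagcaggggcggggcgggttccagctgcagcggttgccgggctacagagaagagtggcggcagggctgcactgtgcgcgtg

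The pattern is a description of letters and not a measured binding site. Lect2, a secreted hepatocyte protein, read 2.97, 3.25 and 3.70 in livers and 2.55, 1.28 and 2.65 in HCC, with 3.45 on the exchanged array (-1.14 and -0.84). Tnfrsf19, a receptor of the tumour necrosis factor family, differed by -0.85 as filed and -0.01 exchanged, and its second probe by 0.01 as filed. The 4 genes were lower on slide 2 (-4.53, -1.76, -1.51 and -0.94) and not on slide 1 in the exchanged reading. This order was not particular to genes with the pattern. Of the whole list 21 of 31 members lay apart downward on slide 2, and its slide 1 median was 0.48 exchanged.

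**Figure D3:**
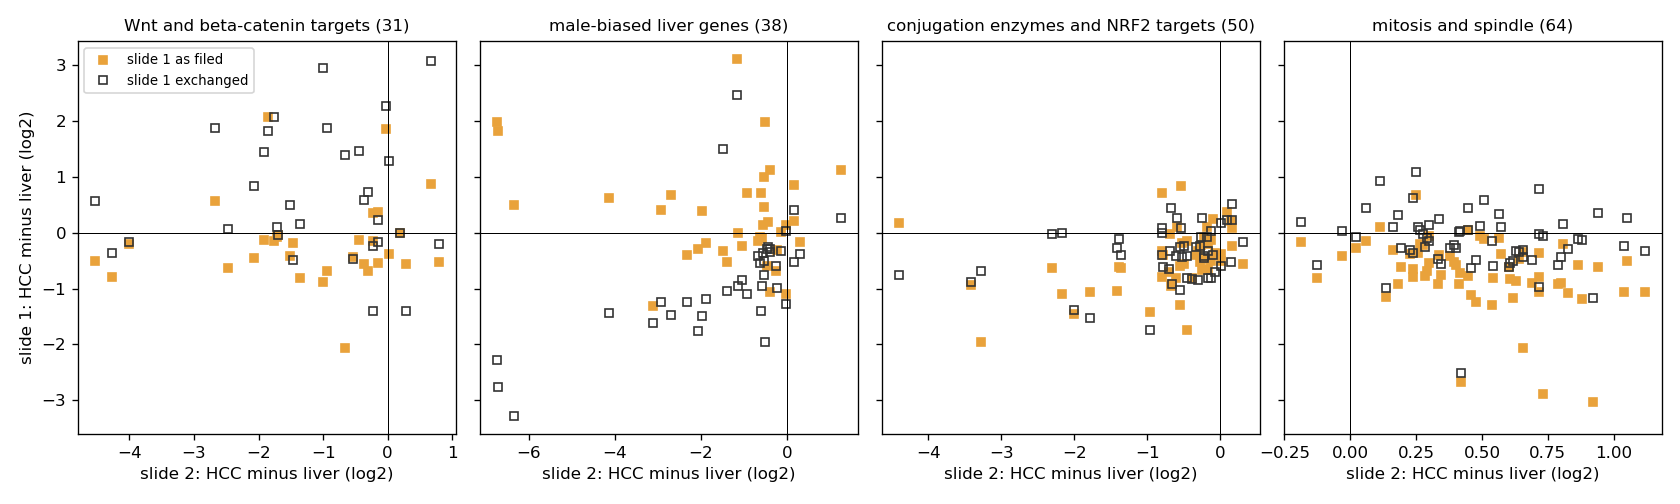
Difference HCC minus liver on slide 1 (y axis, log2) against that on slide 2 (x axis, log2), one point per gene, for 4 lists. Filled squares use the array filed as HCC replicate 1, open squares the exchanged array. Conjugation genes lie mostly below 0 on both axes. The Wnt genes of the open squares lie mostly above 0 on slide 1 (median 0.48), and the filled squares of the male-biased genes have a median of 0.14 there.

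Male-biased liver genes were also split by slide, but in the opposite sense between the readings. On slide 2, 28 of 38 lay apart downward with a median of -0.61. On slide 1 the median was 0.14 as filed and -0.90 exchanged. Over both slides it was -0.43 as filed, -0.60 exchanged and -0.66 without liver 1 as filed. Cyp4a12a, a male-specific fatty acid hydroxylase, read 2.71, 2.79 and 4.14 in livers and 4.53, -4.90 and -1.60 in HCC, with -0.05 on the exchanged array. The array filed as HCC 1 was thus the highest of all for this gene, while the other HCC arrays and the exchanged array were lower than every liver. Its close relative Cyp4a12b behaved alike, at 3.92, -5.43 and -2.26 in HCC against 1.95, 2.21 and 3.56 in livers, with -0.32 on the exchanged array. The differences of the pair were -3.87 and -3.83 as filed and -5.40 and -5.25 exchanged. The steroid hydroxylase Cyp7b1 read 3.31, 2.49 and 3.44 in livers and 3.72, 0.12 and -0.04 in HCC, with 2.06 on the exchanged array (-1.81 as filed, -2.37 exchanged with limma unadjusted p = 0.00124). Susd4 differed by -2.55 as filed, -3.24 exchanged and -4.14 on slide 2, and on slide 1 by 0.62 as filed and -1.45 exchanged. Elovl3, a fatty acid elongase, was well above background on 2 of 3 livers, 2 of 3 HCC arrays as filed and 1 of 3 exchanged, with HCC above liver on slide 1 as filed (-3.00 against -3.50) and below it exchanged (-6.78). Cyp2d9 (-0.44 and -0.59) and Agxt2l1 (-2.51 and -2.60) were lower in HCC on both slides in both readings.

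Female-biased genes had a median of -0.39 as filed and -0.35 exchanged, with 14 of 44 separated downward and 2 upward. The median was -0.12 on slide 2, against -0.80 as filed and -0.71 exchanged on slide 1, and as filed it was -0.22 without liver 1 and -0.64 without liver 3. Cyp2b10, the phenobarbital-inducible P450, was well above background in 2 of 3 livers and on none of the HCC arrays, which puts liver at least 2.78-fold above HCC. The related Cyp2b9, detected in 2 of 3 livers, gave at least 2.13-fold as filed. Cyp2c37 differed by -1.58 as filed and -1.52 exchanged.

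Markers of the resident cells of the sinusoid were mostly lower in HCC. In whole tissue, fewer cells of a type and less RNA per cell cannot be told apart. Of 41 Kupffer cell and macrophage genes, 14 were separated downward and 0 upward, with medians of -0.41 and -0.37. Without HCC 3 the median as filed was -0.22. Clec4f, a lectin of Kupffer cells, read 3.91, 2.76 and 3.26 in livers and 3.86, 0.27 and 1.38 in HCC, with 3.13 on the exchanged array (-1.48 and -1.72). Vsig4, a complement receptor, read 3.20, 2.09 and 2.45 in livers and 1.73, 0.00 and 0.98 in HCC, with 1.67 on the exchanged array (-1.68 and -1.70), all HCC values below all livers. Timd4, a receptor for dying cells, differed by -1.42 and -1.66. Folr2, a folate receptor of resident macrophages, read 1.75, 0.93 and 0.98 in livers and 1.05, -2.06 and -1.15 in HCC, with 0.10 on the exchanged array (-1.94 as filed, -2.26 exchanged, limma unadjusted p = 0.00542 and 7.13e-05). Mertk, a receptor for engulfed cells, differed by -0.77 and -0.75, and the eosinophil chemokine Ccl24 by -1.56 and -1.97.

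Sinusoidal endothelium had 11 of 27 genes separated downward and 0 upward, with medians of -0.51 and -0.41. Its defining markers Stab2, Lyve1 and Clec4g differed by -0.51, -0.69 and -0.87 as filed and by -0.60, -0.43 and -1.04 exchanged. Rspo3, the R-spondin that endothelium near the central vein supplies to Wnt signalling, read 2.15, -0.36 and -0.10 in livers and 0.29, -2.46 and -1.91 in HCC, with 1.13 on the exchanged array (-1.92 and -1.64). It was lower in HCC on each slide in both readings, and its relation to the Wnt targets was not tested. Dnase1l3 differed by -1.05 and -1.23 and Bmp2 by -0.99 and -0.86. Gdf2, which encodes BMP9, differed by -1.53 and -1.79, and whole-tissue values do not show which cells expressed it. The lectin Cd209b was well above background in 2 of 3 livers and on none of the HCC arrays, at least 1.55-fold lower there. Genes of continuous and tumour endothelium did not share this: their median was -0.08 as filed, 0.20 exchanged and 0.23 on slide 2, with 1 of 35 separated downward and 3 upward. Plvap, its first marker, read 1.38, 2.47 and 2.48 in livers and 0.23, 2.98 and 1.98 in HCC, with 0.49 on the exchanged array. No test compared the endothelial lists with each other.

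Stellate cell and matrix genes had 8 of 48 separated downward and 1 upward, and the upward member was Timp1. The median was -0.27 as filed, -0.10 exchanged and -0.13 on slide 2, and on slide 1 it was -0.48 as filed and 0.21 exchanged. As filed it was -0.43 without liver 3, -0.15 without liver 2, -0.13 without HCC 1 and -0.17 without HCC 2. Lrat, which stores retinol in quiescent stellate cells, read 0.49, 0.29 and 0.01 in livers and -0.71, -0.92 and -2.41 in HCC, with -0.68 on the exchanged array (-1.61 and -1.60). All HCC values lay below all livers. The small proteoglycans Dcn and Lum differed by -0.98 and -1.34 as filed and by -1.22 and -1.50 exchanged, and the nerve growth factor receptor Ngfr by -1.91 and -2.31. Neutrophil and monocyte genes had 15 of 29 separated downward and 0 upward, with medians of -0.41 and -0.49. The median as filed was -0.25 without liver 1 and -0.89 without HCC 1. S100a8 and S100a9, the calprotectin subunits, differed by -0.36 each as filed and by -0.49 and -0.42 exchanged, and the granule genes Ngp and Camp by -0.81 and -0.82 as filed and by -0.72 and -0.82 exchanged. Cxcl5, a chemokine that attracts neutrophils, was higher, at -3.61, -3.19 and -3.84 in livers, 2 of 3 of them well above background, and 1.87, -0.11 and -2.79 in HCC, with -0.95 on the exchanged array. Genes of T and natural killer cells had 0 of 39 separated downward and 4 upward, and their median changed sign between the readings (-0.18 and 0.20). Cd3e differed by -0.18 and 0.31. B and plasma cell genes went both ways, with 4 of 27 separated upward and 5 downward and medians of -0.05 and -0.13. The B cell marker Ms4a1 and the brightest probe named Cd79a were lower in HCC on both slides in both readings, unlike Fcrl5 (1.06 and 1.07). Ms4a1 differed by -1.26 as filed and -1.55 exchanged, and this Cd79a probe by -0.995 and -1.44. Its annotation places it on mm9 chromosome 12 (53180558 to 53180617) and it matched no current symbol, so whether it reads Cd79a is uncertain. The other probe named Cd79a differed by -1.32 as filed. Ms4a1 was well above background in 2 of 3 livers and on 2 of 3 HCC arrays in either reading.

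**Figure D4:**
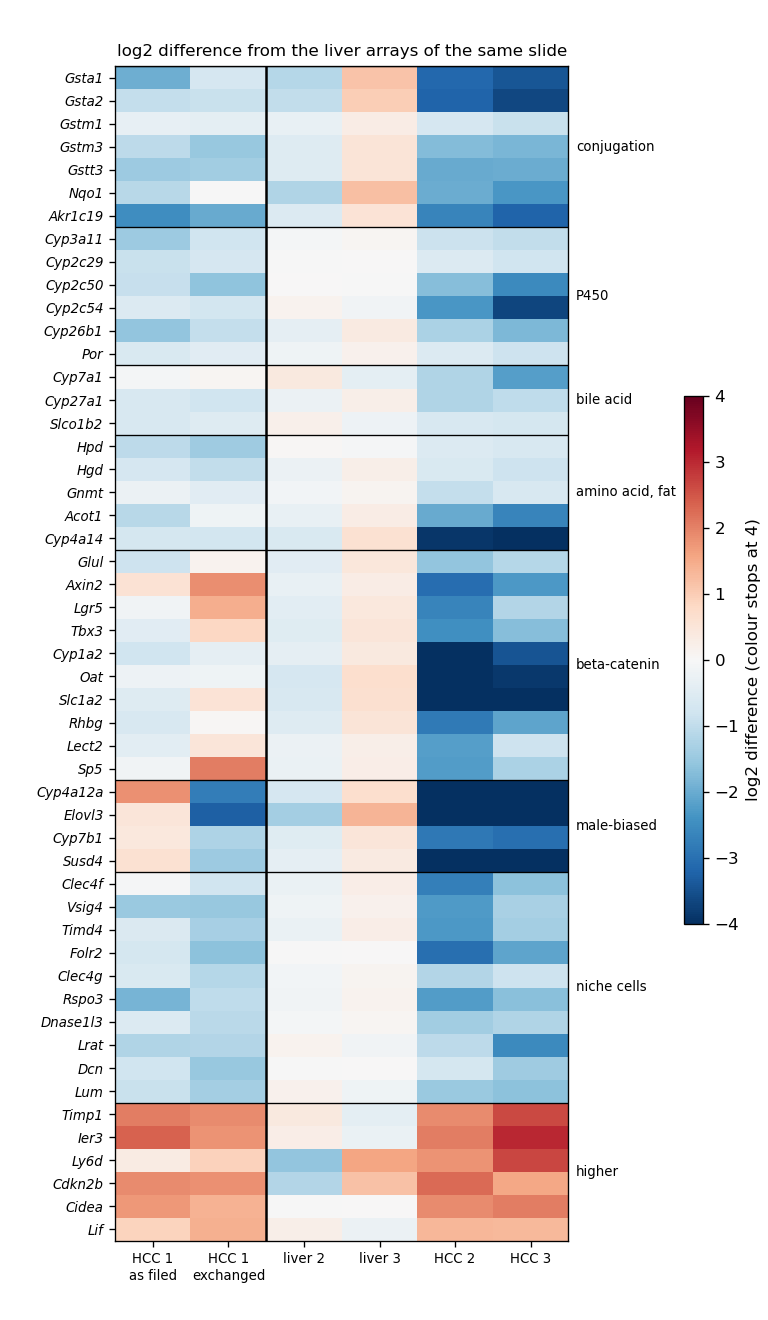
Log2 difference from the intact livers of the same slide for named genes (rows, grouped) in each array (columns), in colour from blue (lower) to red (higher), with colour stopping at 4. The 2 columns on the left are the readings of slide 1 against liver 1, and the slide 2 arrays are set against the mean of livers 2 and 3. Detoxifying and niche cell genes are blue in both HCC arrays of slide 2 and mostly pale to mid blue in both slide 1 readings. Beta-catenin targets range from pale to dark blue in the HCC arrays of slide 2 and from pale blue to red in the exchanged slide 1 column.

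Genes taken as markers of liver tumours and fetal liver did not move as a group. Their median was 0.14 as filed and 0.26 exchanged, and 9 of 50 were separated upward and 3 downward, against a background of 11.1% and 9.60%. Afp, alpha-fetoprotein, read 1.69, 1.31 and 3.07 in livers and 1.42, 1.97 and -0.36 in HCC, with 3.99 on the exchanged array. Gpc3, the glypican used as an HCC marker, read -1.87, -1.36 and 1.86 in livers and 0.35, -1.02 and -0.33 in HCC. The imprinted RNA H19 read 5.52, 4.99 and 2.98 in livers and 5.12, 4.83 and 4.38 in HCC. These 3 markers overlapped between HCC and liver, and liver 3 carried the highest Afp and Gpc3 of the 6 arrays as filed. Ly6d, a small surface protein, was higher in HCC within each slide, at 4.73, 0.68 and 3.84 in livers and 5.06, 4.06 and 4.92 in HCC (1.60 and 1.80). Cdkn2b, a cell cycle inhibitor, differed by 1.90 and 1.89, Cidea, a lipid droplet protein, by 1.89 and 1.77, the fatty acid carrier Fabp5 by 0.79 and 0.65 and the surface receptor gene Igdcc4 by 1.53 and 1.64. Cdkn2b and Igdcc4 were well above background in 2 of 3 livers. HCC was in each of these above the livers of the same slide in both readings. Tspan8, a membrane tetraspanin, differed by 1.59 as filed and 2.11 exchanged, with the array filed as HCC 1 below its liver.

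Genes that answer RAS and MAPK signalling had 6 of 34 separated upward and 1 downward, with a median of 0.08 as filed and 0.22 exchanged. Beside Ier3, the cytokine Lif read -4.35, -5.25 and -5.70 in livers, with 1 of 3 arrays well above background, and -3.46, -4.13 and -4.18 in HCC. The transcription factor Egr1 read 1.58, 1.64 and 1.28 in livers and 1.77, 2.20 and 2.16 in HCC (0.55 in both readings). Il1rn, the interleukin 1 receptor antagonist, differed by 0.94 as filed and 0.65 exchanged, with the exchanged array below its liver.

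Mitotic genes were higher on slide 2 and not on slide 1. On slide 2, 44 of 64 lay apart upward (background 21.4%) with a median of 0.45, but only 1 of 64 was separated upward on both slides. On slide 1 the median was -0.66 as filed and -0.15 exchanged. Ccnb1, cyclin B1, read 1.34, -1.52 and -1.44 in livers and 0.28, -0.88 and 0.00 in HCC, and Ube2c, a ubiquitin-conjugating enzyme of mitotic exit, read 2.23, 0.40 and 0.56 in livers and 1.32, 1.06 and 1.28 in HCC. Liver 1 was thus the highest of the 6 arrays for both genes, as it was for Birc5. Its mean over the list was -0.46 against -1.37 and -1.21 in livers 2 and 3. The excess over slide 2 was not particular to this array. Deleted HCC 1 read -0.81 against -1.59 and -1.36, and the array filed as deleted liver 1 read -0.61 against -1.98 and -2.03. The array filed as HCC 1 went the other way, at -1.18 against -1.06 and -0.57. Exchanged, the array at -1.18 was above the deleted livers of slide 2 (-1.98 and -2.03). The array at -0.61 then lay between the HCC arrays of slide 2 (-1.06 and -0.57). Genes of cholesterol synthesis were likewise higher on slide 2 and not on slide 1, with 16 of 26 apart upward on slide 2 (median 0.44) and a slide 1 median of -0.31 as filed and -0.29 exchanged. Lss, lanosterol synthase, differed by 0.77 and 0.93 and was higher on each slide in both readings. The fatty acid desaturases Fads1 and Fads2 differed by 0.73 and 0.83 as filed and by 0.61 and 1.03 exchanged, with Fads1 lower on slide 1 in the exchanged reading and Fads2 as filed.

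Pancreatic acinar genes were included as markers of neighbouring tissue. Of 29 entries 17 were measured, 7 of them separated upward and 0 downward, with a median of 0.37 as filed, 0.16 without liver 1 and 0.65 exchanged, at signals far below the 75th percentile (list means of -3.72 to -3.36 in livers and -3.18 to -2.89 in HCC as filed). The trypsinogen gene Prss1 was not well above background in any liver and was so on all HCC arrays, at least 2.08-fold higher there. Prss2 read -4.32, -6.15 and -6.12 in livers and -2.39, -4.27 and -1.30 in HCC, and was well above background in 1 of 3 livers and on all HCC arrays. Their part in other results was not tested.

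Whether these differences depended on survivin was asked by setting them against the same contrast in the survivin-deleted mice, which uses other arrays and shares the fit's variance estimate. No gene passed an adjusted p of 0.05 for the difference between genotypes (limma, smallest adjusted p 0.909 as filed, 0.885 exchanged and 0.727 on slide 2), and 1072 genes had an unadjusted p under 0.05 (3.65%). The conjugation list had a median of -0.40 with survivin intact and -0.04 with survivin deleted, and on slide 2, which is free of the arrays in doubt, -0.51 and -0.07. As filed, Gstm3 differed by -1.54 in intact and 0.55 in deleted mice (limma, unadjusted p of the difference 0.00187). Gsta1 differed by -2.84 and 0.33 (0.00426) and Cyp3a11 by -1.10 and 0.00 (0.00240). Exchanged, the limma unadjusted p of the difference was 7.34e-04 for Gstm3, 0.0125 for Gsta1 and 0.0145 for Cyp3a11. On slide 2 alone it was 0.0126, 0.0273 and 0.0153 in the same order. The slide 2 median of Wnt targets was -0.94 with survivin intact and 0.22 with it deleted, and Cyp1a2 stood at -4.27 and 0.02. Kupffer cell genes had a median of -0.41 in intact and 0.41 in deleted mice on slide 2, although Clec4f was lower in both (-2.19 and -1.87). Male-biased genes were lower in both genotypes on slide 2 (-0.61 and -0.79), and so were periportal genes (-0.21 and -0.42). The genes named first were picked for their difference in intact mice, and the other genes and lists here, such as Gstm3 and Cyp1a2, were chosen with those values known. A smaller value in the other genotype is therefore partly set by that choice.

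The readings of slide 1 were also described on genes taken from slide 2. With survivin intact, 314 genes differed by more than 2 log2 units between HCC and liver on slide 2. Against liver 1, and counted in the direction of slide 2, their median was 0.45 on the array filed as HCC 1, 0.72 on the exchanged array and 0.79 on the deleted HCC array of slide 1. For the 348 genes chosen in the same way in deleted mice, these medians were -0.04, 0.61 and 0.32. Both candidate arrays thus lay on the HCC side for the intact genes, and which label is right was not settled by these values. All of these medians are set against liver 1 alone, the dim array. Under either labelling a deleted liver is among the candidates, so a median above 0 does not mark an array as HCC.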

How the data were processed

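Total RNA of 12 tissues was labelled in 1 colour and read on Agilent mouse arrays of 62976 spots, 59305 of them outside the controls, for 55681 probes. Per the submitters' processing notes, the deposited spot intensity values are the authors' output of Agilent Feature Extraction 10.7. The deposited value table holds log2 values centred by the authors on the 75th percentile of each array, as a comparison with the scanner values showed (column medians of -3.27 to -2.52), and was used only as an alternative. No spot was saturated (0 on every array).

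Log2 was taken of the processed intensities, spots of a probe without outlier flags were averaged, and each array's 75th percentile was subtracted. Probes well above background on at least 3 of 12 arrays were kept (45013), and each of 29416 genes was represented by its brightest probe on average, 9135 of them with several probes. Of these, 29406 had at most 1 flagged array and were tested, 13234 with clone-like names. All 12 arrays were fitted with limma 3.58.1 in R 4.3.3, with 4 group means and the slide as a block (7 residual degrees of freedom), and adjusted by Benjamini-Hochberg at 0.05. Array number limits the precision.

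Genes named first are Birc5 and, since fewer than 5 passed per direction, the 8 per direction of smallest unadjusted p whose arrays were separated. On the lower side 2 of these 8 are not reported here. From each of 42 lists the first 3 entries may be named. All other list members were named after their values were seen, and the comparison, members and lists were chosen with earlier results of these data known. Of 1474 list entries 1421 were measured. Of the named genes 19 had several probes, and for 2, Birc5 and Tnfrsf19, the probes differed in sign.

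The fit was tested on simulated data. Same-numbered HCC and liver arrays deviated together (r = 0.72, 0.63 and 0.56 over genes), which in part follows the slide. Within slide 2, which holds numbers 2 and 3, the correlation was 0.29. Whether this remainder reflects a shared animal or shared handling was not tested, and the slide block does not take it up. Alternatives were the replicate number as a block, no block, slide 2 only, only the 2 groups, both treatments of the arrays in doubt, quantile and normexp (offset 50) normalization, the value table, other filters, the mean of probes, array weights, a 1.5-fold threshold and leaving out each array. Added after seeing the data were 3 fits that combine the exchange with no block, with only the 2 groups and without liver replicate 1. Promoters are RefSeq sequences on GRCm38.p6. Probe positions are on mm9, per the annotation columns of the deposited files.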

Additional observations from a re-analysis of the deposited data

Results flagged for a closer look

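In 3 of the 105 named genes every same-numbered pair of arrays differed in one direction with survivin intact and in the other with survivin deleted. Pairs and tests in this section are as filed. The difference between the genotypes was tested by the interaction of the limma fit, and none passed adjustment (adjusted p = 0.909 for each). Most named genes were picked with their difference in intact mice known, so the pattern and the unadjusted p-values below are partly set by that choice. How often it occurs over all genes was not counted. Gstm3, a mu-class glutathione transferase, was lower in HCC by -1.06, -1.21 and -2.35 in intact pairs and higher by 0.81, 0.79 and 0.04 in deleted pairs, a deleted minus intact difference of 2.09 (unadjusted p = 0.00187). Prss1, a trypsinogen, was not well above background in any intact liver, so its values have no exact size there. As measured it was higher in intact HCC by 0.23, 2.39 and 4.62 and lower in deleted HCC by -2.11, -0.15 and -1.04, a difference of -3.51 (unadjusted p = 0.0103). Vmn1r214, a vomeronasal receptor detected in 1 of 3 intact livers, was higher by 0.67, 1.22 and 1.29 and lower by -0.65, -0.32 and -0.54, a difference of -1.56 (unadjusted p = 5.92e-04). Groups of 3 arrays were too small to look for single arrays that stand apart.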

How the results depend on the processing

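Calls at an adjusted p of 0.05 stayed at 0 in limma for both directions under the 21 planned and 3 added settings, with a smallest adjusted p of 0.124, and for the difference between genotypes under the 20 settings in which it was fitted. Counts at an unadjusted p under 0.05 (1010 higher, 699 lower) were 195 and 259 with no slide block and no replicate block, 2053 and 1114 with the arrays exchanged, 2066 and 1097 in the value table, 280 and 347 with array weights and 88 and 139 with the 1.5-fold threshold. The higher count was 536 with normexp and 438 with the filter on all 12 arrays, and the lower count 1079 on slide 2 and 1259 with only the 2 groups. In the added settings they were 492 and 366 exchanged without a block, and the lower count was 1270 exchanged with only the 2 groups. Leaving out an array gave 366 to 1735 higher and 419 to 992 lower. With the replicate block in place of slide the counts were 903 and 696 and the Birc5 difference stayed at -0.25, and no call changed.

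Birc5 (-0.25) was 0.66 on slide 2, 0.29 with the arrays exchanged, 0.29 without both, 0.29 in the value table, 0.50 with array weights, and 0.29, 0.29 and 0.75 in the added settings, with -0.80 to 0.50 on leaving out an array. Of 105 named genes 97 kept their sign in every planned setting that gave them a value, and 21 of the 105 had none under at least 1 stricter filter. Most were named for a difference already seen on these arrays, so a kept sign is partly set by that choice. The share over all genes was not counted. Alb (0.03) was -0.10 on slide 2, -0.17 exchanged, -0.11 without both arrays in doubt, -0.17 in the value table and -0.15 with array weights (-0.074 to 0.14 leaving out an array). Gpc3 (0.12) was -0.93 on slide 2 and -0.30 without both (-0.83 to 1.36). Cd3e (-0.18) was 0.31 exchanged and 0.32 in the value table (-0.31 to 0.079). Plvap (-0.38) was 0.00028 on slide 2. H19 ranged from -0.38 to 0.69, Ccnb1 from -0.22 to 1.16 and Ube2c from -0.11 to 0.67. Of the medians of 20 lists, 24 of 280 values moved by more than the spread between replicates, and the cause was not tested. Groups of 3 arrays, the dim liver replicate 1 and the unsettled HCC replicate 1 limit all of these values.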
